A study of Rattus norvegicus with 20 samples.

Results

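Whole blood of untreated Zucker diabetic fatty (ZDF) rats was compared with whole blood of lean control rats across every gene that could be named on the array. The comparison used 10 of the 20 arrays, 5 titled obese rat blood (here ZDF) and 5 titled lean control rat blood (here lean), with 1 array per rat, chosen by title only. All rats were male, of the strain labelled Zucker, kept alone with food and water at will. The lean rats ate standard chow (Purina 5008), and the obese rats received a stock diet for 6 weeks, so obesity and diet cannot be told apart in what follows. The labels give neither the age of the rats nor the allele that each carried at the leptin receptor gene. The other 10 arrays, from ZDF rats given rosiglitazone or resveratrol, entered 1 alternative fit and the closing values only.

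ZDF rats are obese because both of their copies of the leptin receptor gene carry the fatty mutation. Leptin, the hormone that fat tissue releases, then does not curb feeding, and males become diabetic on suitable diets. Leptin receptors are also found on leukocytes, which circulate through fat tissue and blood. Whole blood RNA comes mostly from reticulocytes, the youngest red cells, and from platelets, with smaller contributions of granulocytes, monocytes, lymphocytes and NK cells. In such a mixture, fewer cells of a type and less RNA per cell cannot be told apart.

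Blood RNA (100 ng of total RNA per array) was measured on Affymetrix Rat Gene 2.1 ST arrays, and each value is a log2 signal made by robust multi-array averaging (RMA), so a difference of 1 is a 2-fold change. Of 36685 transcript clusters, 14824 carried a single gene symbol and gave 14557 genes, the brightest cluster standing for a gene with several. Red cell and platelet genes were the brightest of the marker lists, with a mean level of 7.67 and 7.68 over their lists, whereas the albumin gene Alb, made in liver, had a mean of 3.12 ± 0.24 (SD, n = 5) in lean and 3.55 ± 0.94 (SD, n = 5) in ZDF blood. Skeletal muscle markers had a list mean of 5.37 in lean replicate 1 and of 2.63 to 2.97 in the other 9 arrays, so counts without that rat are given as well. The spread of values over all clusters was narrower on ZDF arrays (SD 1.78 to 1.80) than on lean arrays (SD 1.82 to 1.89), without overlap.

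In ZDF blood, 45 genes were higher and 87 lower at an adjusted p under 0.05 (limma, Benjamini-Hochberg over all 14557 genes), 0.907% of the genes tested, that is 0.309% higher and 0.598% lower. The largest rise was 2.12 and the largest fall was -1.78 on the log2 scale, and no called gene differed by less than 0.60. Without adjustment, 2788 genes (19.2%) had p under 0.05, of which 1190 were higher and 1598 lower. The 5 ZDF rats and the 5 lean rats did not overlap in 701 genes, 4.82% of those tested, 255 higher (1.75%) and 446 lower (3.06%), and 125 of the 132 called genes were among them.

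The direction depended on how bright a gene was. Genes in the 4th decile by mean level had a median difference of 0.13 and 11 calls higher against 3 lower, whereas genes in the 9th decile had a median difference of -0.22 and 6 calls higher against 28 lower. Over all named genes the median difference was 0.01, and over the 8460 genes at or above the median level of all clusters (2.61) it was -0.09. When only those brighter genes were tested, 252 of them (2.98%) were called. The balance of directions also differed between scalings of the arrays. Quantile normalization gave 48 genes higher and 47 lower, centring each array on its median gave 40 and 207, and centring each on its brighter genes gave 191 and 49. The part that the narrower spread of the ZDF arrays had in this balance was not tested.

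**Figure D1:**
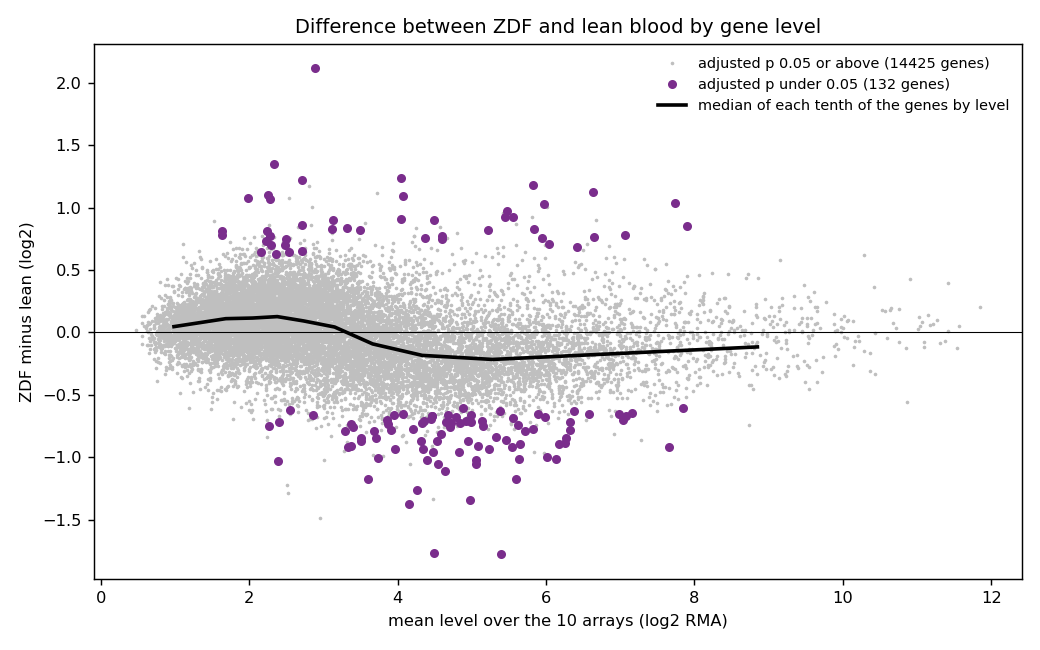
The x axis gives the mean level of each of 14557 genes over the 10 arrays (log2 RMA) and the y axis its ZDF minus lean difference (log2), with the 132 called genes as large points and the black line joining the medians of 10 deciles of genes by level. The line lies above 0 for dim genes, reaching 0.13 in the 4th decile, and below 0 for bright genes, reaching -0.22 in the 9th.

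The number of calls rested on individual rats. Leaving out lean replicate 2 left 12 called genes and leaving out lean replicate 4 left 15. It was 46 without lean replicate 1, 46 without ZDF replicate 1, 61 without ZDF replicate 5, 77 without ZDF replicate 3 and 83 without ZDF replicate 4, and it rose to 290 without lean replicate 5. Of the 132 genes, 11 were called in all 10 of these fits and 40 in at least 7. For each called gene named below, the number of leave-one-out fits that called it is therefore given as fits of 10, and where quantile normalization ended a call, its adjusted p there is given too. Of the 49 genes named by rule, 8 to 45 kept their call in these fits. The fewest were kept without lean replicate 2 (8) and lean replicate 4 (10). All 49 kept their direction, which leaving out a rat cannot change where the groups do not overlap.

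Among the largest rises were genes of monocytes and other phagocytes. Ccr2, the receptor that draws monocytes out of the bone marrow towards the chemokine Ccl2, was at 7.52, 6.97, 7.34, 7.68 and 7.86 in lean replicates 1 to 5. In ZDF replicates 1 to 5 it was at 8.52, 8.69, 8.30, 8.07 and 8.07. The lowest ZDF rat lay above the highest lean rat, and the difference was 0.86 (SE 0.18, adjusted p = 0.0382, 2 fits of 10), a fold change of 1.81. Slc11a1, the phagosome metal transporter also known as Nramp1, had lean levels of 5.07, 4.88, 5.37, 4.55 and 5.07. Its ZDF levels were 5.86, 5.90, 6.27, 5.81 and 5.70, again apart from every lean rat, with a difference of 0.92 (SE 0.16, adjusted p = 0.0182, 8 fits of 10). Aoah, the hydrolase that detoxifies bacterial lipopolysaccharide, rose by 0.93 (SE 0.17, adjusted p = 0.0192, 8 fits of 10), from 5.09 ± 0.24 to 6.02 ± 0.32 (mean ± SD, n = 5 each). Treml4, a receptor of the TREM family on myeloid cells, rose by 0.97 (SE 0.16, adjusted p = 0.0143, 9 fits of 10), from 4.99 ± 0.31 to 5.96 ± 0.13. All 5 ZDF values of both genes were above all 5 lean values.

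C3 and Fn1 rose too. C3, the central component on which the complement pathways converge, was at 5.54, 5.28, 6.07, 5.29 and 5.13 in the lean rats. The ZDF rats had 6.35, 6.84, 6.53, 6.13 and 6.61, close to but not overlapping the lean range, and the difference was 1.03 (SE 0.19, adjusted p = 0.0191, 8 fits of 10), a fold change of 2.04. In the complement group, C3 was the only call of 14 genes, where 0.907% of all genes were called. The group median was 0.18, against -0.09 over all genes in the decile of its mean level (7th). Fn1, which encodes fibronectin, was at 7.52, 6.10, 7.44, 7.49 and 7.57 in lean and at 8.10, 8.51, 8.31, 8.19 and 8.19 in ZDF blood. The groups did not overlap, and the difference was 1.03 (SE 0.23, adjusted p = 0.0476, 1 fit of 10). Without the low lean replicate 2 it was 0.75 (adjusted p = 0.052). Prg4, the joint lubricant lubricin, rose by 0.90 (adjusted p = 0.02, 8 fits of 10), and Sprr1b, a small proline-rich protein of cornified epithelium, by 1.09 (adjusted p = 0.0145, 9 fits of 10). Clic2, a chloride intracellular channel protein, rose by 1.12 (adjusted p = 0.0252, 6 fits of 10).

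The steadiest of the 15 largest rises were a histone gene and a death gene. H2ac12, which encodes a histone H2A protein, was at 5.15, 5.53, 5.31, 5.25 and 4.94 in the lean rats. Its ZDF levels were 6.40, 6.33, 6.53, 6.19 and 6.65. The lowest ZDF rat lay 0.65 above the highest lean rat, and the difference of 1.18 (SE 0.15, adjusted p = 0.00215) was called in 10 fits of 10. Bik, a BH3-only inducer of apoptosis, stood at 2.37, 2.24, 2.40, 2.23 and 2.19 in lean and 3.14, 3.07, 3.18, 2.91 and 3.43 in ZDF blood. Both groups were tight, and the difference was 0.86 (SE 0.13, adjusted p = 0.0109, 10 fits of 10). All 5 lean values lay below the median level of all clusters (2.61). Bik thus met the level limit of the naming rule only through its ZDF values, and its lean levels were dim. The other rises were in Lmo7, a LIM domain protein of cell junctions (0.91, 4 fits of 10), Rasd1, a dexamethasone-induced Ras-like protein (0.90, 2 fits of 10), Car5b, a mitochondrial carbonic anhydrase (0.84, 1 fit of 10), and Or9i1b, a gene of the olfactory receptor family (1.24, 5 fits of 10), with adjusted p between 0.0246 and 0.0469. After quantile normalization Car5b had adjusted p = 0.0588. Or9i1b was at 3.66, 4.05, 3.02, 2.68 and 3.73 in lean and 4.68, 4.20, 5.12, 4.85 and 4.48 in ZDF rats, and together with Or8w1b (1.35, adjusted p = 0.0476, 2 fits of 10, groups overlapping) and Or7e166 (1.08, adjusted p = 0.0213, 6 fits of 10) it was among the 3 called of 1104 olfactory receptor genes (0.272%), a family with a median level of 1.56, near the bottom of the range. After quantile normalization Or8w1b had adjusted p = 0.0716.

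**Figure D2:**
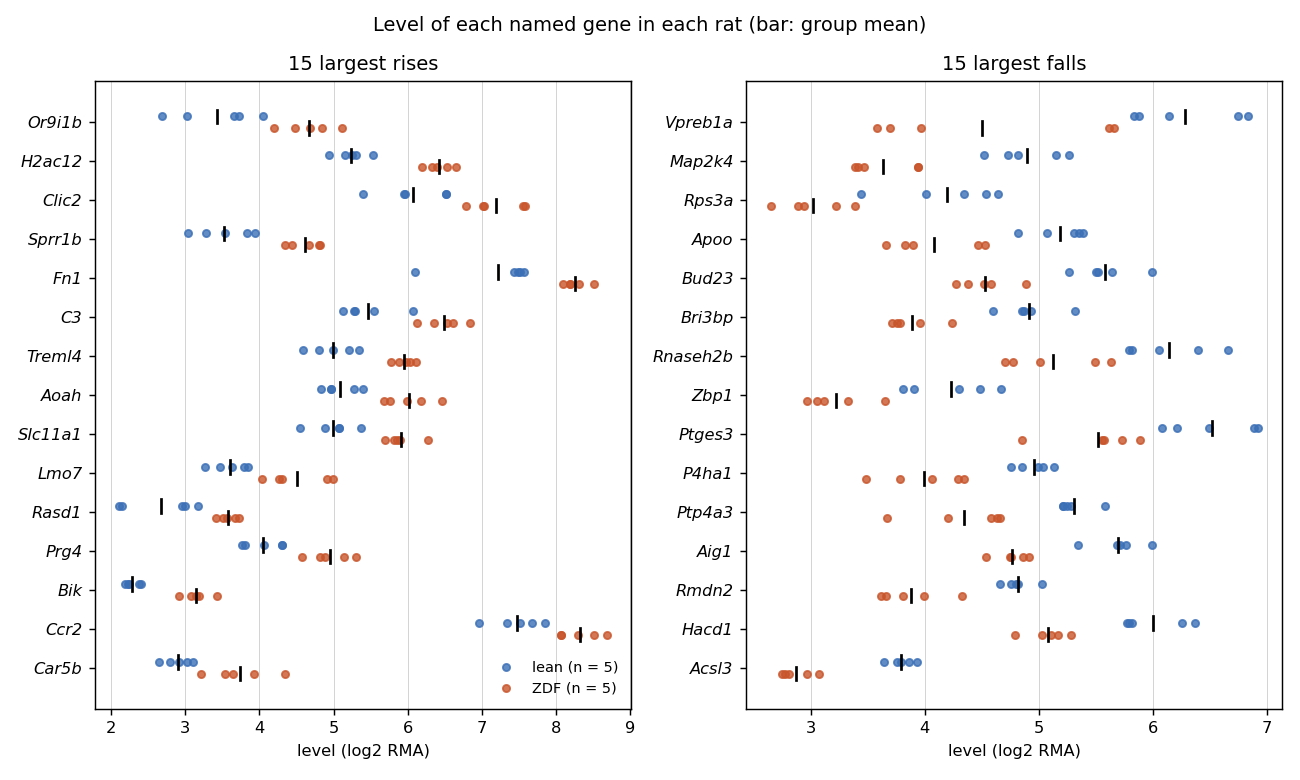
The level of each of the 15 largest rises (left) and the 15 largest falls (right) among called, non-overlapping genes is shown in each rat (x axis, log2 RMA), with lean rats in blue, ZDF rats in orange (n = 5 each) and a black bar for each group mean. The 2 groups are apart for every gene by the rule of choice. The gap differs, being wide for H2ac12 and Acsl3 and narrow for C3 and Rps3a.

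Vpreb1a, the surrogate light chain that precursor B cells carry before they make an antibody light chain, had the largest fall. It was at 6.14, 6.74, 6.83, 5.83 and 5.88 in lean replicates 1 to 5 and at 3.58, 5.61, 5.66, 3.70 and 3.97 in ZDF replicates 1 to 5. ZDF replicates 2 and 3 lay just under the lean range and the other ZDF rats well below it. The difference was -1.78 (SE 0.38, adjusted p = 0.0382, 3 fits of 10), with adjusted p = 0.0686 after quantile normalization.

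The most stable falls were in a stress kinase, a ribosomal RNA enzyme and a lipid enzyme. Map2k4, the kinase that switches on JNK and p38, was at 4.82, 5.15, 4.52, 5.26 and 4.73 in lean and 3.47, 3.39, 3.94, 3.42 and 3.94 in ZDF blood. The highest ZDF rat was below the lowest lean rat, and the level fell by 1.26 (SE 0.18, adjusted p = 0.00638, 10 fits of 10), a lean level 2.4 times the ZDF level. Acsl3, an acyl-CoA synthetase that feeds fatty acids into lipid droplets and phospholipids, was at 3.64, 3.93, 3.86, 3.76 and 3.79 in lean rats. It was at 2.97, 2.75, 2.78, 2.81 and 3.07 in ZDF rats, a fall of 0.92 (SE 0.13, adjusted p = 0.00638, 10 fits of 10) with little spread inside either group. Bud23, the methyltransferase of 18S ribosomal RNA, fell by 1.05 (SE 0.16, adjusted p = 0.0109, 10 fits of 10), from 5.58 ± 0.27 to 4.53 ± 0.24. The transmembrane proteins Bri3bp (-1.02, adjusted p = 0.0109) and Aig1 (-0.93, adjusted p = 0.0109) were also called in 10 fits of 10.

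The other falls included genes of mitochondria, of collagen and of fatty acid elongation. Apoo, a subunit of the MICOS complex that shapes mitochondrial cristae, had lean levels of 5.07, 5.35, 5.39, 5.31 and 4.82 and ZDF levels of 3.90, 4.53, 3.83, 3.66 and 4.47. All ZDF rats were lower, by 1.11 on average (SE 0.19, adjusted p = 0.0145, 8 fits of 10). P4ha1, a prolyl hydroxylase of collagen, fell by 0.96 (adjusted p = 0.0182, 8 fits of 10). Hacd1, a dehydratase of fatty acid elongation, fell by 0.92 (adjusted p = 0.0168, 8 fits of 10), and its level in lean replicate 1, the rat with the muscle signal, was 5.82, inside the lean range of 5.77 to 6.37. Rmdn2, a microtubule regulator, fell by 0.93 (adjusted p = 0.0145, 8 fits of 10), and Ptp4a3, a phosphatase also called PRL-3, by 0.96 (adjusted p = 0.0235, 6 fits of 10).

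A nucleic acid sensor, a nuclease subunit and a co-chaperone fell as well. Zbp1, the sensor of Z-form nucleic acid that interferon induces, was at 4.67, 4.48, 3.91, 4.30 and 3.81 in lean and 3.12, 2.97, 3.06, 3.65 and 3.33 in ZDF blood. The ranges came within 0.16 of each other, and the group mean fell from 4.23 ± 0.37 to 3.23 ± 0.27 (mean ± SD, n = 5 each, SE of the difference 0.18, adjusted p = 0.0192, 6 fits of 10). Rnaseh2b, a subunit of the enzyme that removes ribonucleotides from DNA, fell by 1.02 (adjusted p = 0.0375, 4 fits of 10). After quantile normalization its adjusted p was 0.0728. Ptges3, the Hsp90 co-chaperone p23, fell from 6.51 ± 0.38 to 5.52 ± 0.40 (adjusted p = 0.0378, 3 fits of 10), with adjusted p = 0.0696 after quantile normalization. Rps3a, a ribosomal protein, fell by 1.18 (adjusted p = 0.0191, 7 fits of 10), although ribosomal genes have many near-identical copies whose probes may not be told apart.

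Genes of lymphocytes were among the lower ones. Lck, the kinase that starts T cell receptor signalling, was at 6.87, 6.63, 6.40, 6.89 and 6.35 in lean rats. In ZDF rats it was at 5.65, 5.86, 5.94, 5.56 and 5.64, below the lean range throughout, a fall of 0.90 (SE 0.15, adjusted p = 0.0145, 8 fits of 10). Cd3d, a chain of the T cell receptor complex, fell by 0.87 (adjusted p = 0.0418, 3 fits of 10), with lean replicate 3 and ZDF replicate 4 crossing. Ms4a1 (CD20) and Cd72, both on B cells, fell by 0.78 (adjusted p = 0.0378, 4 fits of 10) and 0.79 (adjusted p = 0.0182, 8 fits of 10). Further called lymphocyte genes, chosen after their values were seen, were Il21r, the interleukin-21 receptor (-0.87, 6 fits of 10), Btla, an inhibitory receptor (-0.79, 4 fits of 10), Cd200, the ligand of a myeloid inhibitory receptor (-0.78, 2 fits of 10), Gpr174, a lysophosphatidylserine receptor (-0.75, 2 fits of 10), and Ptprcap, the CD45-associated protein (-0.66, 2 fits of 10). Their adjusted p lay between 0.02 and 0.0476. After quantile normalization Lck, Cd72 and Il21r were still called, while adjusted p was 0.0696 for Cd3d, 0.0798 for Ms4a1, 0.0777 for Btla, 0.0599 for Cd200, 0.0797 for Gpr174 and 0.116 for Ptprcap.

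The marker lists had medians of the same sign as these members. T cell markers had a median difference of -0.39 over 25 genes, 24 of them below 0, with 0 called higher and 2 lower, and B cell markers had a median of -0.45 with 2 of 14 called lower, and 1 of each pair was called after quantile normalization. Over all genes the median was 0.01 and 0.907% were called. In the decile of each list's mean level, the median over all genes was further below 0. It was -0.22 for T cell and monocyte markers (9th decile) and -0.18 for B cell and neutrophil markers (8th). In these deciles 28 of 1456 and 22 of 1455 genes were called lower. Monocyte markers had a median of 0.45, with 19 of 20 above 0 and 3 called higher. Neutrophil markers had a median of 0.43 with 0 of 25 called by limma, although 12 had an unadjusted p under 0.05, as did 19.2% of all genes. Of these markers 22 were above 0 and 3 below. S100a8, the calgranulin of neutrophils and monocytes, differed by 1.01 (adjusted p = 0.0684) and Mmp8, neutrophil collagenase, by 0.90 (adjusted p = 0.06). Retnlg went the other way, by -0.81 (adjusted p = 0.278). The list mean per rat ranged over 4.97 to 5.37 in lean and 5.43 to 5.76 in ZDF blood for monocytes, and over 4.63 to 5.11 and 4.15 to 4.52 for B cells, without overlap. For T cells it was 5.11 to 5.84 and 4.96 to 5.31, and for neutrophils 4.05 to 4.50 and 4.36 to 4.74, both overlapping. None of the monocyte, T cell, B cell and platelet markers was called without lean replicate 2 or without lean replicate 4, and 1 of each list was called without lean replicate 1. These lists move together with the genes named above, and the part that cell numbers had in any single gene was not tested.

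**Figure D3:**
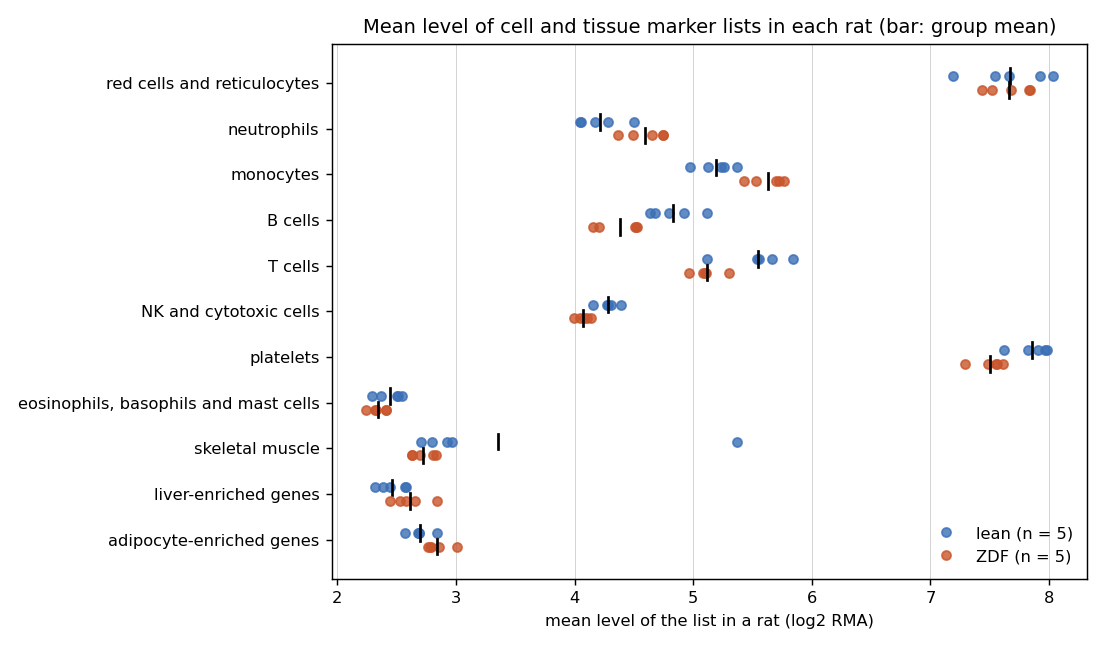
The mean level of each cell or tissue marker list (x axis, log2 RMA) is shown in each rat, lean in blue and ZDF in orange (n = 5 each), with a black bar for each group mean. Monocyte, B cell, NK and platelet lists separate the groups, the red cell list overlaps fully (7.19 to 8.04 in lean and 7.43 to 7.84 in ZDF), and lean replicate 1 stands alone at 5.37 for skeletal muscle.

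Further receptors of monocytes were higher. Cx3cr1, the fractalkine receptor of patrolling monocytes, was at 5.88, 5.74, 5.52, 5.75 and 5.56 in lean and 6.27, 6.47, 6.64, 6.25 and 6.37 in ZDF blood. Its groups were narrow and apart, and it rose by 0.71 (SE 0.14, adjusted p = 0.0235, 7 fits of 10). Clec4a1, a C-type lectin of monocytes, rose by 0.83 (adjusted p = 0.0324, 3 fits of 10), Lilrb4, an inhibitory immunoglobulin-like receptor, by 0.78 (adjusted p = 0.0421, 2 fits of 10), and Itga5, the fibronectin receptor subunit, by 0.82 (adjusted p = 0.0418, 2 fits of 10). Of 20 chemokine receptors on the array, 2 were called higher (Ccr2 and Cx3cr1) and 0 lower, against 0.309% higher and 0.598% lower over all genes, and the list median was 0.00. Ccr1 (0.70, adjusted p = 0.0848) and Cxcr2 (0.70, adjusted p = 0.0723) were positive and Ccr7, the lymph node homing receptor (-0.70, adjusted p = 0.0688), negative, short of the threshold. Igsf6 (0.76, adjusted p = 0.0319, 4 fits of 10) and Mnda, a nuclear protein of myeloid cells (0.75, adjusted p = 0.0411, 2 fits of 10), were called higher too, and were named only once their values were known.

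The 300 bases around the start of 4 of these genes are shown because the first pair was higher and the second pair lower in ZDF blood. The sequences are from RefSeq (GRCr8) and run from 250 bases before to 50 after the annotated start. Capitals mark matches to GGAAGT, a motif bound by some factors of the ETS family, on either strand (ACTTCC on the printed strand).
Cx3cr1, chr8:128677017-128677316, minus strand: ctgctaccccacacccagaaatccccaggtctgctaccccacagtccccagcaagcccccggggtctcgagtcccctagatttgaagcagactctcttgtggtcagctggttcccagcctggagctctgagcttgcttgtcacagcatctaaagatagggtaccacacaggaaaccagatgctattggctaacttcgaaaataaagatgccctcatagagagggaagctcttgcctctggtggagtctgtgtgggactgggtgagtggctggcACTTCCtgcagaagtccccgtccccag
Ccr2, chr8:132611953-132612252, plus strand: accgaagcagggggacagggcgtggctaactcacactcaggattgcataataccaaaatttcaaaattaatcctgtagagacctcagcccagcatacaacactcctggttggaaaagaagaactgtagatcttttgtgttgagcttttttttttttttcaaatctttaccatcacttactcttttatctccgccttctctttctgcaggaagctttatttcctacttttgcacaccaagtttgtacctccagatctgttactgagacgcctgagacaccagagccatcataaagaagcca
Cd3d, chr8:54185269-54185568, plus strand: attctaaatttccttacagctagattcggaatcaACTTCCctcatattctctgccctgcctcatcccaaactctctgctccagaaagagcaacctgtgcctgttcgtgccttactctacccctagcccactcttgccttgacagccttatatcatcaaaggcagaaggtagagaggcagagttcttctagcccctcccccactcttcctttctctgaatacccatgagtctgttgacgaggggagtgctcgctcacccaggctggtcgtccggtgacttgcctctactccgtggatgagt
Ppbp, chr14:17587250-17587549, minus strand: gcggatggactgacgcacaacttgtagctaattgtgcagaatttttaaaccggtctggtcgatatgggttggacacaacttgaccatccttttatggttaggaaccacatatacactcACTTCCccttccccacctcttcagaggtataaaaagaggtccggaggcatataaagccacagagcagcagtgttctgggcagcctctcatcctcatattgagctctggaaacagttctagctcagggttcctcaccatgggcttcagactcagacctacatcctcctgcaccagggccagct
The motif was found in Cx3cr1, Cd3d and Ppbp with 1 match each, and not in the Ccr2 window. Shorter stretches such as GGAA, which the Ccr2 window holds, were not marked. It was in 22.6% of all 33469 promoters of that length, so a match is a description of these letters only.

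Ppbp and Treml1 of platelets were lower. Ppbp, the platelet basic protein that is stored in alpha granules, was at 8.22, 7.99, 8.30, 8.14 and 7.89 in lean and 7.09, 7.34, 7.52, 6.74 and 7.27 in ZDF blood. The groups stood well apart, and the fall was 0.92 (SE 0.16, adjusted p = 0.0174, 8 fits of 10). Treml1, a receptor of platelet alpha granules, fell by 0.70 (adjusted p = 0.0349, 1 fit of 10). Of 18 platelet markers, 17 were below 0, 2 were called lower (0.598% of all genes were) and 7 did not overlap between the groups (3.06% of all genes did so in that direction), while Pf4, platelet factor 4, differed by -0.56 at adjusted p = 0.0528. Called genes of platelet function outside the list, chosen after their values were seen, were Ly6g6f, an immunoglobulin-like platelet receptor (-0.85, adjusted p = 0.0192, 7 fits of 10), Pear1, a platelet aggregation receptor (-0.73, adjusted p = 0.027, 5 fits of 10), Abcc4, the nucleotide exporter of dense granules (-0.74, adjusted p = 0.0192, 8 fits of 10), and Ilk, the integrin-linked kinase (-0.65, adjusted p = 0.0423, 1 fit of 10). After quantile normalization adjusted p was 0.0553 for Treml1, 0.0716 for Pear1 and 0.0716 for Ilk. The very bright platelet genes Rgs18 and Mmrn1 differed by -0.05 and -0.05 (adjusted p = 0.873 and 0.883).

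Over 48 gene groups, 19 held no called gene, 22 held 1 and 7 held 2 or more, and the group median was below 0 in 33. That number was 29 after quantile normalization, 42 after centring on the median and 18 after centring on the brighter genes, so the sign of a median near 0 carries no weight. The TCA cycle, pyruvate and malic enzyme group had 3 called lower and 1 higher of 30 genes, against 0.598% lower and 0.309% higher over all genes, and 1 lower and 1 higher after quantile normalization. Me1, the cytosolic malic enzyme that supplies NADPH, was at 6.87, 6.82, 6.65, 6.75 and 6.39 in lean and 5.82, 6.07, 5.87, 5.52 and 5.76 in ZDF rats, without overlap, and fell by 0.89 (SE 0.15, adjusted p = 0.0145, 8 fits of 10). Got1, the aspartate aminotransferase of the malate-aspartate shuttle, fell by 0.77 (adjusted p = 0.0411, 2 fits of 10). Idh3a, a subunit of isocitrate dehydrogenase, fell by 0.72 (adjusted p = 0.0476, 1 fit of 10). Pdk3, a kinase that shuts off pyruvate dehydrogenase, rose by 0.68 (adjusted p = 0.0469, 1 fit of 10). After quantile normalization adjusted p was 0.0712 for Got1 and 0.103 for Idh3a. The group median was -0.25, close to the median of -0.22 over all genes in the decile of its mean level (9th). In that decile 28 of 1456 genes were called lower and 6 higher. Lean replicate 1, the rat with the muscle signal, had a group mean of 5.165, against 4.638 to 4.89 in the other lean rats. It was also the highest lean rat for Got1 (5.11, next 4.67), Idh3a (5.60, next 5.50) and Me1 (6.87, next 6.82). The same held for Pdk3 (6.38, next 6.27), which rose. The part that the muscle signal had in these differences was not tested.

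Further mitochondrial genes with a lower level were Tfam, the packaging factor of mitochondrial DNA, Crls1, cardiolipin synthase, Vdac3, a channel of the outer membrane, and Ak3, the adenylate kinase of the matrix, all chosen after their values were seen. Tfam was at 4.06, 4.23, 4.24, 4.35 and 4.17 in lean and 3.56, 3.56, 3.47, 3.41 and 3.53 in ZDF blood, with little spread in either group, and fell by 0.70 (SE 0.12, adjusted p = 0.0182, 8 fits of 10). Crls1 fell by 0.71 (adjusted p = 0.0324, 2 fits of 10), Vdac3 by 0.60 (adjusted p = 0.0449, 2 fits of 10) and Ak3 by 0.69 (adjusted p = 0.0235, 5 fits of 10). After quantile normalization adjusted p was 0.0728 for Crls1 and 0.0599 for Vdac3. None of the 54 oxidative phosphorylation genes was called, where 0.907% of all genes were. Their median was -0.14, against -0.22 over all genes in the decile of their mean level (9th).

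The glutathione S-transferase genes Gsta4 and Gsta1 were lower, with unequal lean rats. Gsta4, which clears lipid aldehydes, was at 5.56, 5.15, 5.28, 4.75 and 3.49 in lean and 3.51, 3.58, 3.32, 3.46 and 3.50 in ZDF rats. Lean replicate 5 sat inside the ZDF range and the other 4 lean rats above it, so that the groups overlapped, and the difference was -1.37 (SE 0.28, adjusted p = 0.0349, 1 fit of 10), or -1.71 (adjusted p = 0.000382) without that rat. Gsta1 overlapped in the same way, with lean replicate 5 at 3.25, and fell by 0.91 (adjusted p = 0.0476, 2 fits of 10), with adjusted p = 0.0722 after quantile normalization. No other gene of the antioxidant group was called, so 2 of its 40 genes were, against 0.907% of all genes. The group had a median of -0.06, against -0.22 over all genes in the decile of its mean level (9th).

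Groups of cell growth had medians below 0 and 1 or 2 genes called lower in each, where 0.598% of all genes were called lower. DNA replication and mitosis genes had 39 of 45 members below 0 and a median of -0.27, with Mcm7, a subunit of the replicative helicase, as the only call (-0.79, adjusted p = 0.0182, 8 fits of 10). Ribosome biogenesis and RNA polymerase I genes had 35 of 38 below 0 and a median of -0.32, with Taf1d, a polymerase I factor, called (-0.65, adjusted p = 0.0476, 2 fits of 10). Cytosolic ribosomal proteins had 38 of 45 below 0 and a median of -0.28, with Rps3a and Rpl7 (-0.66, adjusted p = 0.0476, 2 fits of 10) called, and the chaperone group of 44 genes, with a median of -0.16, had Tcp1, a chaperonin subunit (-0.84, adjusted p = 0.0324, 3 fits of 10), and Hsph1 (-0.71, adjusted p = 0.0349, 2 fits of 10). After quantile normalization adjusted p was 0.11 for Taf1d, 0.0798 for Rpl7, 0.059 for Tcp1 and 0.0855 for Hsph1. Over all genes in the decile of each group's mean level, the median difference was -0.09 for DNA replication and mitosis (7th decile), -0.18 for ribosome biogenesis (8th), -0.12 for cytosolic ribosomal proteins (10th) and -0.22 for the chaperones (9th).

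**Figure D4:**
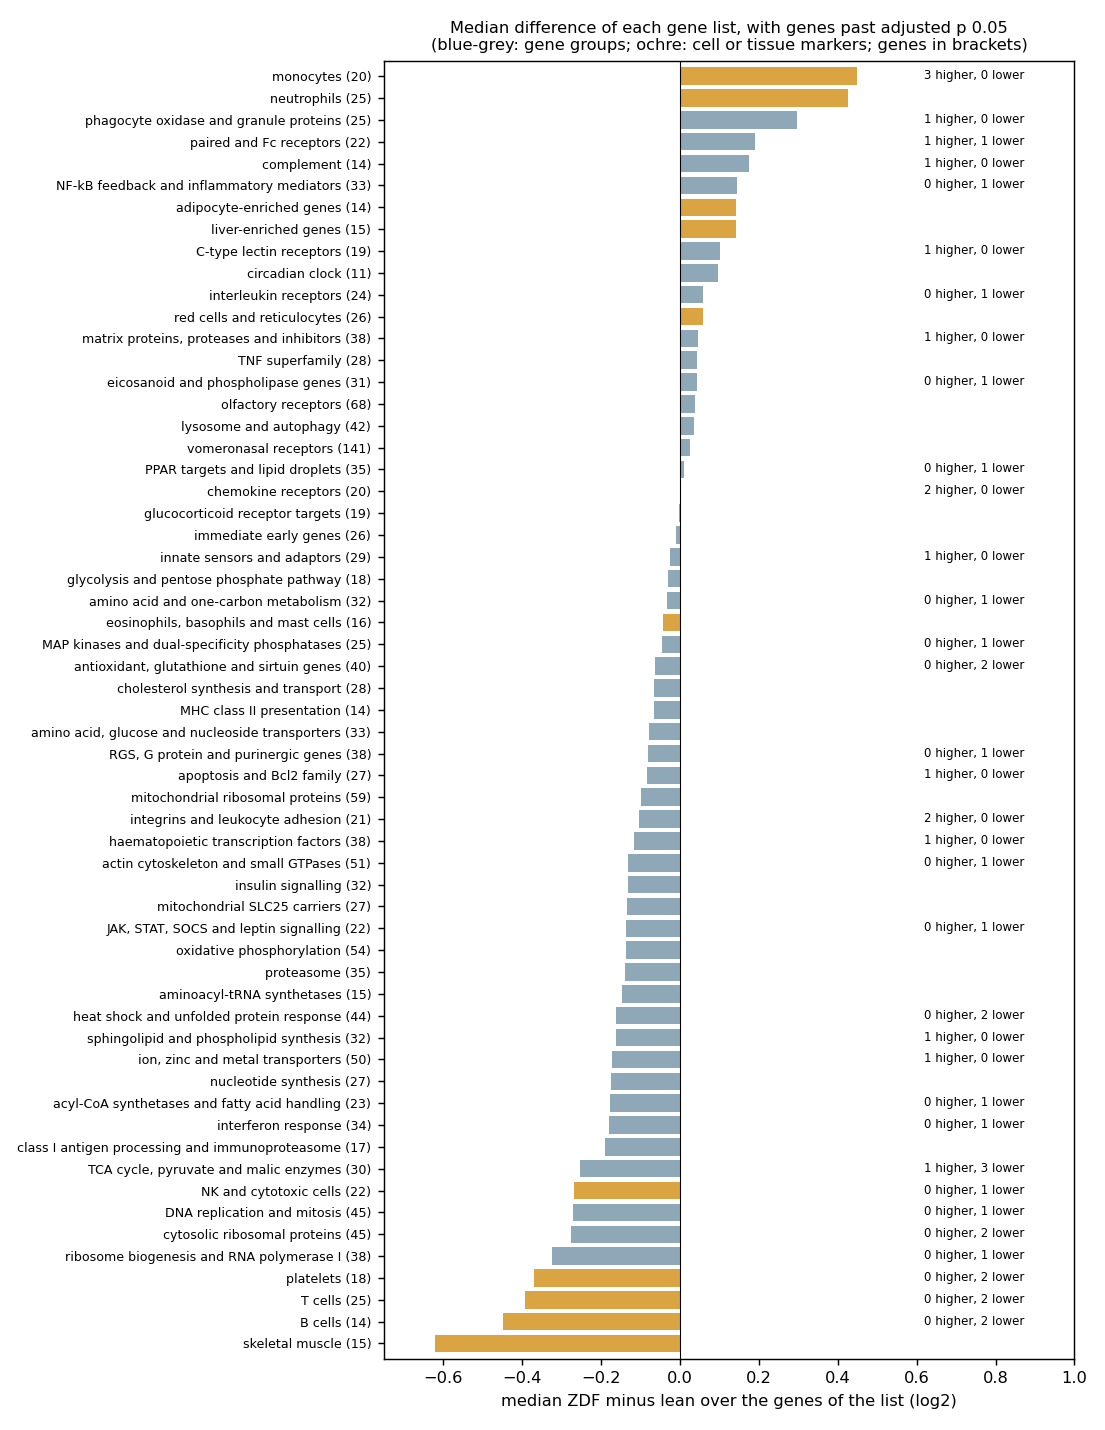
The x axis gives the median ZDF minus lean difference (log2) over the genes of each of 59 lists, gene groups in blue-grey and cell or tissue markers in ochre, with the number of genes in brackets and the called genes written at the right. Monocyte and neutrophil markers have the highest medians (0.45 and 0.43), and muscle, B cell and T cell markers the lowest (-0.62, -0.45 and -0.39), the muscle value moving to -0.15 without lean replicate 1.

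Groups tied to obesity and its hormones held 0 or 1 call each, where 0.907% of all genes were called. Insulin signalling genes had 0 of 32 called by limma and a median of -0.13, PPAR targets and lipid droplet genes a median of 0.01 with 1 of 35 called (Me1), and glucocorticoid receptor targets 0 of 19 called and a median of 0.00. Among the last, Dusp1, a phosphatase of MAP kinases, differed by 0.71 (adjusted p = 0.0688). JAK, STAT, SOCS and leptin signalling genes had a median of -0.14, with Ptpn11, the phosphatase SHP2 that acts downstream of the leptin receptor among others, the only call of 22 genes (-0.67, adjusted p = 0.0278, 4 fits of 10). Interferon response genes had a median of -0.18 with Zbp1 as the only call, and Irf7 differed by -0.74 (adjusted p = 0.111). Medians over all genes in the decile of a group's mean level were further below 0. For the insulin, JAK and interferon groups it was -0.22 (9th decile). For PPAR targets and glucocorticoid receptor targets it was -0.18 (8th).

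Lepr itself was not among the named genes and was not analysed here. Its neighbours in gene order on chromosome 5 were examined, because a line bred for a mutation also carries the alleles around it. Of the 50 named genes nearest to it, 25 on each side, 0 were called by limma, 10 (20.0%) had an unadjusted p under 0.05, as did 19.2% of all genes, and the median difference was -0.05. The smallest adjusted p was that of Tmem59 (difference 0.45, adjusted p = 0.0762), a regulator of protein glycosylation, whose groups did not overlap (7.67 ± 0.05 in lean and 8.12 ± 0.08 in ZDF, mean ± SD, n = 5 each). On chromosome 5 as a whole 0.576% of 868 genes were called, against 0.907% of all genes. Shares by chromosome ran from 0.269% (chromosome 19) to 2.3% (chromosome 17). On chromosome 17, 9 of 392 genes were called, H2ac12, Aoah, Hacd1 and Rps8l1 among them. That chromosome was picked as the highest, and its share was not tested.

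Of 32 microRNA genes named on the array, 7 were at or above the median level of all clusters, and the median difference of the 32 was 0.04. Only 1 was called, rno-mir-15b, where 0.907% of all genes were. The 2 mature microRNAs of its cluster on chromosome 2 are shown because they share a seed, the stretch that pairs with target messages (bases 2 to 8, in capitals). The sequences and positions are from RefSeq (GRCr8, plus strand).
rno-miR-15b-5p, chr2:155555197-155555218: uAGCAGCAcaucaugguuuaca
rno-miR-16-5p, chr2:155555343-155555364: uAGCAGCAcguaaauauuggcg
The rno-mir-15b cluster was at 2.88, 3.51, 2.52, 3.14 and 2.45 in lean and 1.76, 1.67, 2.03, 2.06 and 1.83 in ZDF rats, dim but without overlap, a fall of 1.03 (SE 0.19, adjusted p = 0.0192, 7 fits of 10). The rno-mir-16 cluster was at 3.58, 3.38, 2.97, 4.01 and 3.66 and 2.70, 1.77, 2.55, 3.27 and 2.18, overlapping, with a difference of -1.02 (SE 0.24, adjusted p = 0.059). Mir223, the microRNA of myeloid cells, had a difference of 0.60 (SE 0.18, adjusted p = 0.102). All 3 were chosen after their values were seen, and the array reads RNA of the microRNA locus, not the mature strand alone.

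The firmest calls of all were in genes with little annotation, left out by the naming rule and added after their values were seen. RGD1565183 was at 1.50, 2.46, 1.88, 1.42 and 1.88 in lean and 4.26, 3.39, 3.67, 4.35 and 4.05 in ZDF blood, a gap of 0.92 between the groups, and differed by 2.12 (SE 0.22, adjusted p = 0.000336, 10 fits of 10). As with Bik, all 5 lean values lay below the median level of all clusters (2.61), so the lean levels were dim. Snrpgl2, named as a copy of the spliceosome subunit gene Snrpg, was at 4.98, 5.60, 5.57, 5.52 and 5.21 in lean and 3.11, 4.09, 3.56, 3.83 and 3.47 in ZDF rats. It lay lower in every ZDF rat, by 1.77 on average (SE 0.19, adjusted p = 0.000336, 10 fits of 10). Rps8l1 (-1.17, adjusted p = 0.0109, 10 fits of 10) and Rpl37al2 (1.22, adjusted p = 0.0182, 8 fits of 10), copies of ribosomal protein genes, moved in opposite directions. Such copies can share probes with their parent genes, so their values are uncertain as readings of a single locus. The lean values of Rpl37al2 (1.43 to 2.54) were also all below 2.61. In all 5 ZDF rats given rosiglitazone, RGD1565183 and Snrpgl2, like H2ac12 and Vpreb1a, lay beyond the untreated ZDF range on the lean side. The labels give no litter or array batch, so the part that either had in these 4 calls was not tested.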

How the data were processed

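Whole blood RNA of 5 lean and 5 untreated ZDF rats was analysed, 1 array per rat, with groups taken from the sample titles. The authors deposited log2 signals made by RMA (version not given in the sources used here), and these values were used unchanged. Clusters with a single symbol (14824 of 36685) were kept, 14670 matched to RefSeq by Entrez ID and 154 kept under their array name, and the brightest cluster per gene was used (14557 genes, no level filter). ZDF and lean were compared with limma 3.58.1 (R 4.3.3), with p-values adjusted over all genes and a threshold of 0.05. In simulated data with independent normal noise for each gene and array, 80.6% of 67 genes changed by 1 were recovered. Of 67 genes changed by 0.5, 11.9% were. Variation that genes of an array share was not simulated, so these shares may not hold for the real arrays. Named genes are the 15 largest rises and 15 largest falls among called, non-overlapping genes at or above the median level of all clusters, without predicted or copy-type names, plus up to 4 called members of each list with at least 2. Members and lists were chosen with earlier results of these data known. The number of arrays limits the precision, and nothing says how the rats were spread over hybridizations. Each p-value sets a difference against the spread between these rats, moderated over all genes. With 1 array per rat, that spread includes the spread between arrays.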

Additional observations from a re-analysis of the deposited data

Results flagged for a closer look

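Over the 85 genes named with their values, 170 groups of 5 rats were examined and 8 held a rat far from the other 4 (gap over range above Dixon's critical value), where chance alone gives about 1 in 20. Fn1 was at 6.10 in lean replicate 2 against 7.44 in the next lean rat. Lean replicate 5 held 4 of the 8 values, with Caskin1 at 2.27 (next 1.66), Cenpw at 3.81 (next 4.26), Pltp at 5.65 (next 6.15) and Abcc4 at 5.68 (next 6.02). The others were Ptp4a3 at 5.58 in lean replicate 1 (next 5.28), Idh3a at 4.17 in ZDF replicate 5 (next 4.67) and Igsf6 at 7.35 in ZDF replicate 2 (next 7.01). All 8 are log2 levels, and all 8 genes were called between ZDF and lean.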

How the results depend on the processing

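The 132 called genes (45 higher, 87 lower) became 252 (68 and 184) over genes at or above the median level, 530 (86 and 444) at or above the 75th percentile, 95 (48 and 47) after quantile normalization, 247 (40 and 207) after centring on the median, 347 (100 and 247) with a trended robust prior, 219 (71 and 148) with array weights and 16 (6 and 10) with all 20 arrays in the fit. Centring on the brighter genes, chosen after seeing the data, gave 240 (191 and 49). A replicate block gave 57 (16 and 41). Same-numbered lean and ZDF rats are different animals whose deviations correlated between -0.09 and 0.07, so the numbers do not pair them. Leaving out each rat gave 12 to 290 called, 5 to 83 higher and 7 to 207 lower. The 701 non-overlapping genes were 432 at or above the 75th percentile. Beside Lepr, Tmem59 was called over the genes at or above the median level and after centring on the brighter genes (1 each), and Tmem59 with Mysm1 over those at or above the 75th percentile (2). These limits for Lepr were added after seeing the data. No named gene changed direction under any of these settings. Where the groups of a gene do not overlap, the fits that left out a rat could not have changed it. Of the 49 genes named by rule, 13 lost their call after quantile normalization, 6 after centring on the brighter genes, 19 with the block and 40 with all 20 arrays. Genes below the median level (2.61), where signal over background limits the array, gave 19 of the 132 calls, 15 of them higher.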

Other observations

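Other calls, chosen after their values were seen, belong to no group above. Pltp, the phospholipid transfer protein of plasma, was at 6.15, 6.34, 6.18, 6.16 and 5.65 in lean and 5.12, 5.43, 5.24, 4.77 and 5.44 in ZDF rats (-0.90, adjusted p = 0.0198, 6 fits of 10). Nuak1, a kinase related to AMPK, differed by -0.85 (adjusted p = 0.0235, 6 fits of 10), and the RNA-binding or transport genes Hnrnpa1, Tra2b and Xpo4 by -0.71, -0.68 and -0.72 (adjusted p = 0.0469, 0.0393 and 0.0195), in 2, 1 and 6 fits of 10. Sgms2, a sphingomyelin synthase (0.82, adjusted p = 0.0476, 2 fits of 10), Cenpw, a centromere protein (0.77, adjusted p = 0.0278, 5 fits of 10), Caskin1 (1.10, adjusted p = 0.0109, 10 fits of 10) and Mycn (0.64, adjusted p = 0.0411, 2 fits of 10) were higher, the last 2 at levels below the median of all clusters. After quantile normalization adjusted p was 0.111 for Hnrnpa1, 0.109 for Tra2b and 0.0716 for Mycn.

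The arrays of treated ZDF rats (5 given rosiglitazone and 5 given resveratrol) share the lean and untreated ZDF arrays as their references, so their levels are given side by side with no test. RGD1565183 ranged from 1.42 to 2.46 in lean, 3.39 to 4.35 in untreated ZDF, 1.66 to 2.70 in rosiglitazone and 3.73 to 5.82 in resveratrol rats. H2ac12 ranged from 4.94 to 5.53, 6.19 to 6.65, 5.01 to 5.53 and 6.25 to 7.14 in the same order, Snrpgl2 from 4.98 to 5.60, 3.11 to 4.09, 4.84 to 6.00 and 2.30 to 4.32, and Vpreb1a from 5.83 to 6.83, 3.58 to 5.66, 5.83 to 6.61 and 3.05 to 6.31. For these 4 genes all 5 rosiglitazone rats lay beyond the untreated ZDF range on the lean side. For Clic2, Car5b, Zbp1, P4ha1, Ptp4a3, Rmdn2 and Hacd1 none did. Clic2 levels of the rosiglitazone rats (7.62 to 9.31) lay above the untreated ZDF range (6.79 to 7.58), away from lean. For Treml4, Bud23 and Aig1 it was all 5 resveratrol rats that lay beyond that range on the lean side. The labels give no litter or array batch for any of the 20 arrays, so a difference of that kind between groups cannot be told apart from treatment, and sample identity was not tested. Among 21861 clusters without a single gene name, 49 were called in a fit over all clusters, 21 higher and 28 lower.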
